A study of Homo sapiens with 4 samples.

Results

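The mRNAs of the ubiquitin E2 enzymes, the cullins and the F-box proteins were examined as binding targets of the helicase DHX36 in HEK293 cells, a human embryonic kidney line. Members were chosen by gene symbol alone, as UBE2 followed by a letter and at most 1 digit, as CUL followed by a digit and at most 1 letter, or as FBXO, FBXL or FBXW followed by a number. The rule found 105 of the 26490 genes in the table, namely 33 E2, 8 cullin and 64 F-box genes. The F-box genes comprised 37 FBXO, 18 FBXL and 9 FBXW genes. The rule itself used no measured value, although the gene families were chosen with earlier results of these data known.

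Ubiquitin is passed from an E1 activating enzyme to an E2 conjugating enzyme, and from there to a substrate chosen by an E3 ligase. Cullins are the scaffolds of the largest class of E3 ligases. CUL1 binds F-box proteins through SKP1, and each F-box protein holds the substrate to be modified. FBXW proteins recognize substrates with WD40 repeats, FBXL proteins with leucine-rich repeats, and FBXO proteins with other domains. Cullins are switched on by NEDD8, a ubiquitin-like protein with E2 enzymes of its own. DHX36 is known for unwinding G-quadruplexes, which are stacks of guanines formed by RNA or DNA with several runs of G. The study asked which RNAs the protein contacts in cells, and used a helicase-dead form because a stalled helicase was thought to stay at its sites.

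PAR-CLIP was performed in 2 stable cell lines, with 2 biological replicates of each. FH-DHX36 cells expressed HA-Flag-tagged isoform 2 of DHX36, and FH-DHX36-E335A cells expressed tagged isoform 1 with the E335A mutation. Isoform and mutation therefore cannot be told apart. Both lines carried a tetracycline-inducible transgene, were kept under hygromycin B and blasticidin, and were induced with 500 ng/ml tetracycline for 15 h. The cells kept their own DHX36, and the transgene was present above it. RNA was labeled with 4-thiouridine, crosslinked by 365 nm light for 5 min, trimmed with RNase T1 and recovered with an anti-FLAG antibody. A cluster is a group of overlapping reads with the T-to-C conversions that mark crosslinked 4-thiouridine.

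The table gave 1 value per gene and cell line, so that no spread between replicates could be computed and no test was made. FH-DHX36 yielded 2160413 crosslinked reads and FH-DHX36-E335A 8752127, a ratio of 4.05. The number of genes listed moved with this depth, and its part in the differences between the lines was not tested. Read counts of the lines were therefore compared as shares of each total. Intervals given below are 95% intervals for counting error only, and PCR copies are not independent molecules. A gene without a cluster was listed with 0 reads, which does not show that it was unbound. Of 5 HEK293 markers 3 had a cluster in FH-DHX36-E335A, whereas PAX2 and NEFM had none. None of 5 markers of other cell types had a cluster in either line.

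In the mutant, E2 and cullin mRNAs were listed more often than F-box mRNAs. There, 31 of 33 E2 mRNAs had a cluster (93.9%, Wilson interval 80.4% to 98.3%). All 8 cullin mRNAs had one (interval 67.6% to 100%), as did 39 of 64 F-box mRNAs (60.9%, 48.7% to 71.9%). The background was 34.5% of all genes in the table and 48.1% of the 18878 genes with an annotated protein-coding transcript. The F-box share was the nearest to the protein-coding background, which lay just under its interval. In FH-DHX36, 21 E2 (63.6%), 4 cullin (50%) and 30 F-box mRNAs (46.9%) had a cluster, against 22.4% of all genes and 31.2% of protein-coding genes. E2 mRNAs were also the more abundant group. Among members with an FH-DHX36-E335A cluster, the median RNA abundance on the length-scaled scale behind the deposited scores was 17.8 for E2, 4.33 for cullins and 4.85 for F-box genes, against 5.89 for all genes with a cluster. Its part in the number of members listed was not tested.

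As over all genes, almost every member listed in FH-DHX36 was also listed in the mutant. Both lines shared 53 members, which was 67.9% of the FH-DHX36-E335A members and 96.4% of the FH-DHX36 members. Over all genes the shares were 62.1% and 95.6%. Another 25 members had a cluster in FH-DHX36-E335A alone, namely 10 E2, 4 cullin and 11 F-box mRNAs. This was 25 of 78 members, against a background of 37.9% of all genes with an FH-DHX36-E335A cluster. Their reads were fewer, with a median of 270 against 836 for the shared members. Only FBXW8, a receptor paired with CUL7, and FBXO27, a receptor of glycosylated proteins, were listed in FH-DHX36 alone. FBXW8 had 95 reads there, where an equal share in the mutant would have given 385. FBXO27 had 34 reads, where an equal share would have given 138. The smallest number listed for any gene in the mutant was 5 reads. Why FBXW8 and FBXO27 were not listed there was not tested. The remaining 25 members, 2 E2 and 23 F-box genes, had no cluster in either line.

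**Figure D1:**
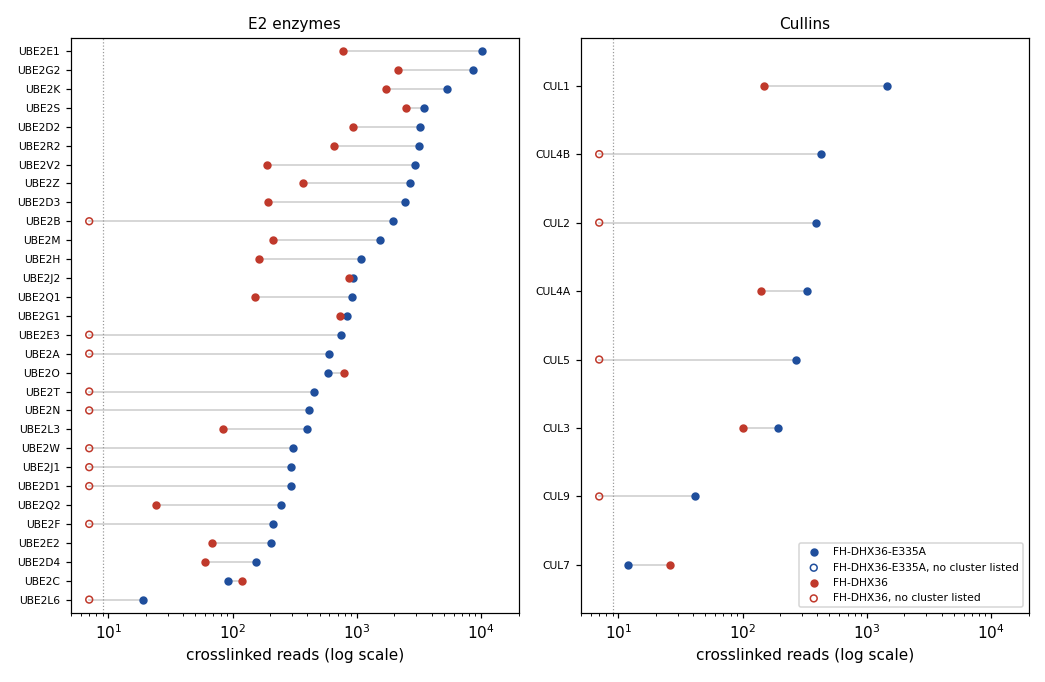
Crosslinked reads (log scale) of E2 and cullin mRNAs with a cluster, in FH-DHX36-E335A (blue) and FH-DHX36 (red), as deposited and not scaled to depth. Open circles left of the dotted line mark mRNAs without a listed cluster, which have no place on the axis. Most blue points lie to the right, and the mutant PAR-CLIP held 4.05 times as many reads in total. UBE2O, UBE2C and CUL7 had more reads in FH-DHX36.

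The E2 mRNAs held 59705 crosslinked reads in 319 clusters in FH-DHX36-E335A and 13473 reads in 87 clusters in FH-DHX36. The reads were concentrated in a few genes. The first 3 members held 40.6% of the E2 reads in FH-DHX36-E335A and 47.1% in FH-DHX36. The median over listed E2 mRNAs was 836 reads in FH-DHX36-E335A, against 326 for all genes with a cluster. In FH-DHX36 it was 370, against 121. Read number across E2 mRNAs followed RNA abundance only loosely, with a Spearman's rho of 0.33 over 31 genes of the same PAR-CLIP, and 0.32 over all 9131 genes with a cluster.

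UBE2G2, the E2 of the degradation pathway of the endoplasmic reticulum, was the clearest case of a 3′ UTR target. It had 8602 reads in FH-DHX36-E335A and 2141 in FH-DHX36. Of these, 8461 and 1959 lay in the 3′ UTR. The share of all reads was nearly the same in both lines, with a log2 ratio of FH-DHX36-E335A over FH-DHX36 of -0.01 (interval -0.08 to 0.06). Reads per kb of 3′ UTR came to 3025 in FH-DHX36-E335A, against a median of 185 over E2 mRNAs with a 3′ UTR cluster and 129 over all such genes. Its paralog UBE2G1 had 836 and 728 reads. In the mutant they were spread over 17 clusters, of which 11 lay in the 3′ UTR at 117 reads per kb. In FH-DHX36 all 728 reads lay in a single intronic cluster, and the log2 ratio was -1.82 (-1.96 to -1.67). Another annotated gene, RN7SL774P, lies within UBE2G1 on the same strand, so that the assignment of these intronic reads is uncertain. The paralogs thus differed in amount of binding. In the mutant the 3′ UTR held the most reads of each, but 98.4% for UBE2G2 and 45.9% for UBE2G1. Their leading annotations differed in FH-DHX36 alone, which rests on the intronic cluster of UBE2G1.

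Other E2 mRNAs were also read mainly in the 3′ UTR in the mutant. UBE2R2, a partner of cullin ligases related to CDC34, had 3158 reads there, 2960 of them in the 3′ UTR. In FH-DHX36 it had 649 reads, with 374 in the CDS against 256 in the 3′ UTR. UBE2Z, which is charged by the E1 enzyme UBA6, had 2666 and 370 reads, of which 2521 and 370 lay in the 3′ UTR. UBE2H, an E2 abundant in maturing red blood cells, had 1072 and 163 reads, and 921 and 163 lay in the 3′ UTR. These 3 mRNAs kept a 3′ UTR signal in both lines, whereas the CDS took the larger part of UBE2R2 reads in FH-DHX36. UBE2K, which builds chains linked through lysine 48, had 36 clusters in the mutant, 30 of them in the 3′ UTR. Its 5323 reads comprised 3255 in the 3′ UTR and 1981 in annotations other than 5′ UTR, CDS, 3′ UTR and intron. In FH-DHX36 it had 1709 reads in 5 clusters, and 1347 of the reads fell in that other annotation. Its log2 ratio was -0.38 (-0.46 to -0.30) over all reads and 1.60 over exonic reads alone.

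A 5′ UTR cluster was listed for 10 of 31 E2 mRNAs in the mutant (32.3%, against 20.4% of all genes with a cluster) and for 7 of 21 in FH-DHX36 (33.3%, against 18.6%), and UBE2S and UBE2D2 had the most 5′ UTR reads. UBE2S, which elongates chains on substrates of the anaphase-promoting complex, had 3471 reads in FH-DHX36-E335A and 2492 in FH-DHX36. The 5′ UTR held 3356 and 2373 of them. With a 5′ UTR of 199 nt this made 16864 and 11925 reads per kb. The share of all reads was lower in the mutant, at a log2 ratio of -1.54 (-1.61 to -1.47). UBE2D2, a broadly acting E2, had 3226 and 925 reads. The 5′ UTR held 650 of them in the mutant and 551 in FH-DHX36, and the 3′ UTR held 2103 and 245. UBE2D2 thus shifted from a mostly 5′ UTR distribution in FH-DHX36 to a mostly 3′ UTR distribution in the mutant.

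The sequences below are matches to a G-run pattern in those UTRs, shown because runs of G are what DHX36 is known to recognize. The pattern was 4 runs of at least 2 G separated by loops of 1 to 7 nt, searched on the sense strand of the canonical GENCODE release 44 transcript on GRCh37, without overlap. It is common, with a match in 65.0% of the 18529 canonical 3′ UTRs and in 53.8% of their transcripts' 5′ UTRs. Each sequence is the match of at most 30 nt with the most and longest G runs in its region, and capitals mark runs of G. Positions of clusters were not part of the table, so that no match was tied to a cluster. The 3′ UTR matches lie at chr21:46189973-46189995 on the minus strand for UBE2G2, chr4:39784240-39784257 on the plus strand for UBE2K, chr9:33918038-33918064 on the plus strand for UBE2R2, chr17:47005531-47005552 on the plus strand for UBE2Z and chr1:1190154-1190178 on the minus strand for UBE2J2. The 5′ UTR matches lie at chr19:55919063-55919087 on the minus strand for UBE2S and chr5:138941102-138941122 on the plus strand for UBE2D2.
UBE2G2: GGGcccctGGGcccaGGctGGGG
UBE2K: GGGtGGGctgtGGGGtGG
UBE2R2: GGGagtGGGGcaagcGGGGaagttGGG
UBE2Z: GGcagaGGGGGttGGGGctGGG
UBE2J2: GGGtGGGaacctcGGGGcccaGGGG
UBE2S: GGGGagcGGagcGGGGccgccGGGG
UBE2D2: GGGaGGaagaGGcagctacGG
The 3′ UTR of UBE2G2 held 11 such matches and that of UBE2J2 held 12, whereas UBE2K, with the most 3′ UTR clusters, held 2. The 5′ UTR of UBE2S held 4 and that of UBE2D2 held 5.

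For 10 of 21 E2 mRNAs with a cluster in both lines (47.6%) the annotation with most reads was the same, against 59.7% of all such genes. UBE2E1, an E2 of the UBE2D/E family, had the most reads of all members, 10138 in FH-DHX36-E335A and 776 in FH-DHX36. In the mutant 7528 of them (74.3%) fell in other annotation. The log2 ratio of its share was 1.69 (1.58 to 1.80) over all reads and 0.09 over exonic reads alone. With reads outside the annotated mRNA regions left out, UBE2E1 thus took a like share in both lines.

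Among E2 mRNAs with a cluster in both lines and at least 100 reads, the share was highest in the mutant for UBE2V2, UBE2E1, UBE2D3 and UBE2Q2. UBE2V2, a variant without catalytic activity that guides UBE2N, had 2952 reads in 27 clusters in FH-DHX36-E335A. It had 190 reads in 2 clusters in FH-DHX36, a log2 ratio of 1.94 (1.73 to 2.16), or 4.63 over exonic reads alone. Its 3′ UTR held 2520 reads in the mutant and 28 in FH-DHX36, where an intronic cluster held 162. UBE2D3, a paralog of UBE2D2, had 2441 and 193 reads (1.64, 1.43 to 1.86), with 1806 and 134 in the 3′ UTR. UBE2Q2 had 246 and 24 reads (1.34, 0.73 to 2.01), all 3′ UTR in the mutant and all intronic in FH-DHX36.

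The share was lowest in the mutant for UBE2O, UBE2C, UBE2J2 and UBE2G1. UBE2O, a large enzyme with both E2 and E3 activity, had 587 reads in FH-DHX36-E335A and 781 in FH-DHX36 (log2 ratio -2.43, -2.59 to -2.27). The CDS held 542 and 769 of them. It was the E2 member read mainly in the CDS in both lines. UBE2C, which starts chains for the anaphase-promoting complex, had 91 reads in its 3′ UTR in the mutant and 119 in other annotation in FH-DHX36 (log2 ratio -2.41). At an RNA abundance of 196 it was among the most abundant members and had the lowest NXPM of the listed members in the mutant. UBE2J2, an E2 of the endoplasmic reticulum membrane, had 926 and 859 reads (-1.91, -2.05 to -1.77), mostly in the 3′ UTR in both lines with 571 and 524. Its paralog UBE2J1 had 297 reads in the mutant and no cluster in FH-DHX36, where 73.3 reads would mark an equal share.

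The remaining paralogs and ubiquitin-like E2 mRNAs varied widely. UBE2D1 had 295 reads and UBE2D4 had 153 in the mutant, and only UBE2D4 was listed in FH-DHX36, with 60. UBE2E3 had 740 and UBE2E2 203 in the mutant, and only UBE2E2 was listed in FH-DHX36, with 68. Coding sequences of the UBE2D and UBE2E paralogs are alike, and how reads matching several copies were assigned is not given in the sources used here. UBE2Q1 had 909 and 151 reads. Of the NEDD8 enzymes, UBE2M had 1539 reads in the mutant and 212 in FH-DHX36, whereas UBE2F had 210 in the mutant and no FH-DHX36 cluster. UBE2F shares its locus with a read-through gene, UBE2F-SCLY. UBE2L6, the E2 of ISG15, had 19 reads in the mutant, the fewest of any listed E2 mRNA. UBE2V1, the close relative of UBE2V2, had no cluster in either line. The annotation names 16 pseudogenes after it and a read-through gene that spans it, so that its 0 is uncertain. UBE2U, the other E2 mRNA without a cluster, is known mainly from the urogenital tract. UBE2B, an E2 of DNA damage tolerance, had the most reads of the members listed in the mutant alone, with 1938, against 478 at an equal share in FH-DHX36, and was chosen for mention after its value was seen.

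The cullin mRNAs were read mainly in introns in FH-DHX36. Their median of 299 reads in the mutant and 120 in FH-DHX36 lay near the 326 and 121 of all genes with a cluster. Together they had 3109 reads in 53 clusters in FH-DHX36-E335A and 415 reads in 8 clusters in FH-DHX36. In the mutant the 3′ UTR held 1178 of the reads (37.9%) and introns 724 (23.3%). In FH-DHX36 introns held 353 (85.1%), and no cullin had a 3′ UTR cluster. Introns took 4.48% and 8.51% of the reads of all genes. The 3 cullins with over 50% of their FH-DHX36 reads in introns stand against a background of 13.1% of genes with a cluster.

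CUL1, the scaffold for F-box proteins, had the most reads of the cullins, with 1449 in the mutant and 149 in FH-DHX36. Introns held 669 and 128 of them and were its leading annotation in both lines, with 46.2% and 85.9%. The log2 ratio was 1.26 (1.02 to 1.52). CUL4A, a scaffold that works with DDB1, had 328 reads in the mutant, 234 of them in the 3′ UTR. In FH-DHX36 all 140 reads lay in 3 intronic clusters, a log2 ratio of -0.79 (-1.08 to -0.49). CUL3, the scaffold for BTB-domain receptors, had 194 and 100 reads (-1.06, -1.42 to -0.70), with 112 in the CDS in the mutant and 85 in an intron in FH-DHX36. Over exonic reads alone the CUL3 ratio turned to 1.60, with 15 exonic reads in FH-DHX36. CUL7, the scaffold that binds FBXW8, had 12 and 26 reads (-3.13, -4.26 to -2.10), too few for a firm ratio.

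The other cullin mRNAs were listed in the mutant alone. CUL4B, the paralog of CUL4A, had 425 reads, CUL2 and CUL5, scaffolds for elongin-bound receptors, had 390 and 270, and CUL9, an atypical cullin, had 41. CUL4B, CUL2 and CUL5 had 8 clusters each, with 319, 192 and 196 reads in the 3′ UTR. At an equal share they would have had 105, 96.3 and 66.6 reads in FH-DHX36. The smallest number listed there for any gene was 6 reads, and why these cullins were not listed was not tested.

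**Figure D2:**
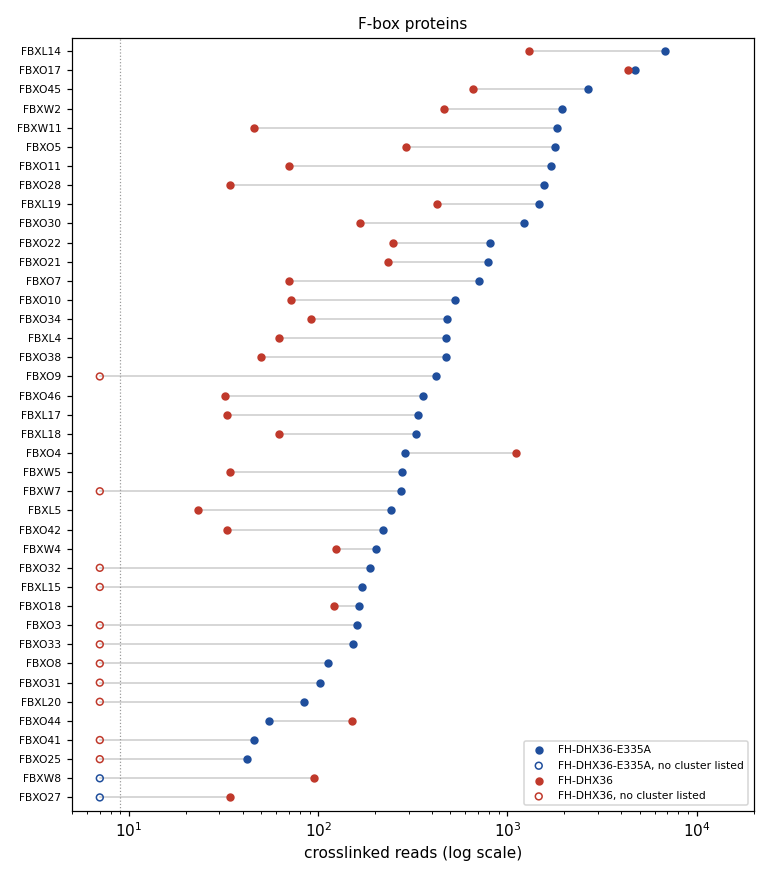
Crosslinked reads (log scale) of F-box mRNAs with a cluster, in FH-DHX36-E335A (blue) and FH-DHX36 (red), as deposited and not scaled to depth. Open circles left of the dotted line mark mRNAs without a listed cluster. FBXO17 had nearly as many reads in FH-DHX36 as in the mutant, FBXO4 and FBXO44 had more, and FBXW11, FBXO11 and FBXO28 show the widest gaps toward the mutant.

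The F-box mRNAs held 35336 reads in 332 clusters in FH-DHX36-E335A and 10634 reads in 85 clusters in FH-DHX36. The median over listed mRNAs was 356 reads in the mutant and 93.5 in FH-DHX36, near the 326 and 121 of all genes with a cluster. By subfamily, 25 of 37 FBXO, 9 of 18 FBXL and 5 of 9 FBXW mRNAs had a cluster in the mutant, and 18, 7 and 5 had one in FH-DHX36. The first 3 mRNAs held 40.3% of the F-box reads in the mutant and 63.4% in FH-DHX36.

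FBXL14, a receptor of SNAI1 and other factors of epithelial transition, had the most reads, with 6846 in the mutant and 1296 in FH-DHX36. They lay mostly in an intron, with 5769 and 768, and no 3′ UTR cluster was listed in either line. FBXL14 lies within WNT5B on the opposite strand. Its log2 ratio was 0.38 (0.30 to 0.47) over all reads and -2.41 over exonic reads alone. It thus accounted for most of the intronic F-box reads of the mutant, of which there were 7310.

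FBXO17, a receptor of glycosylated proteins, had 4722 reads in the mutant and 4340 in FH-DHX36. The 3′ UTR held 3940 and 4205 of them. This was 3264 and 3484 reads per kb, the highest 3′ UTR values of all members in each line. Its share of reads was lower in the mutant, at a log2 ratio of -1.90 (-1.96 to -1.84). Another protein-coding gene is annotated on the same strand over the end of FBXO17, so that the assignment of its 3′ UTR reads is uncertain. Without FBXO17, the 3′ UTR share of exonic F-box reads in FH-DHX36 was 24.3% in place of 59.7%, against 51.4% for all genes.

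FBXO45 and FBXW2 stood out by their reads relative to mRNA abundance. FBXO45, an atypical receptor active in neurons, had 2660 reads in 26 clusters in the mutant and 657 in 9 clusters in FH-DHX36, a log2 ratio of 0.00 (-0.12 to 0.12). Its 5′ UTR held 347 and 180, its CDS 604 and 249, and its 3′ UTR 1612 and 196. FBXW2 had 1934 reads in 27 clusters and 463 in 10 (0.04, -0.10 to 0.19), with 1092 and 277 in the 3′ UTR. Both mRNAs thus took a like share of the reads of each line. FBXO5, an inhibitor of the anaphase-promoting complex, had 1795 and 292 reads, with 642 and 206 in the 5′ UTR, which is 82 nt long in the canonical transcript. FBXO30, a receptor active in muscle, had 1226 and 167 reads, of which 513 and 55 lay in the CDS and 546 and 112 in other annotation.

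The F-box mRNAs with the highest share in the mutant were FBXO28, FBXW11, FBXO11 and FBXO46. FBXO28 had 1556 reads in 24 clusters in the mutant and 34 in 1 CDS cluster in FH-DHX36 (log2 ratio 3.50, 3.01 to 4.03). FBXW11, a receptor of beta-catenin and other phosphorylated proteins, had 1834 reads in 17 clusters and 46 in 1 cluster (3.30, 2.88 to 3.75), with 1716 and 46 in the 3′ UTR. FBXO11, a receptor of BCL6, had 1708 and 70 reads (2.59, 2.25 to 2.96), of which 1645 and 70 lay in the CDS. Each of the 3 was represented by a single cluster in FH-DHX36. FBXO46 had 356 and 32 reads (1.46, 0.93 to 2.03). Of its mutant reads 241 were intronic, and the ratio turned to -0.16 over exonic reads.

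The lowest shares in the mutant were those of FBXO4, FBXO44, FBXO17 and FBXO18. FBXO4, a receptor described for cyclin D1, had 287 reads in the mutant, 273 of them in the CDS. In FH-DHX36 it had 1109 reads in a single CDS cluster, so that its log2 ratio was -3.97 (-4.16 to -3.78). FBXO44 had 55 and 150 reads, all in the 3′ UTR (-3.47, -3.94 to -3.01). FBXO18, a DNA helicase named FBH1 in the annotation, had 165 and 121 reads (-1.57, -1.92 to -1.22), with 121 in introns in each line. FBXW7, a receptor of cyclin E and MYC, had 274 reads in the mutant, 214 of them in the CDS, and no FH-DHX36 cluster.

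Matches to the same G-run pattern are shown for F-box mRNAs with high reads or a large difference between the lines. The 3′ UTR matches lie at chr19:39432340-39432364 on the minus strand for FBXO17, chr9:123526668-123526690 on the minus strand for FBXW2 and chr5:171289124-171289145 on the minus strand for FBXW11. The 5′ UTR match of FBXO45 lies at chr3:196295703-196295720 on the plus strand.
FBXO17: GGttgtGGGtttactGGaacgaGGG
FBXW2: GGGGccaGGGctcGGGGtGGGGG
FBXW11: GGGGGaaGGGaGGGGGcaGGGG
FBXO45: GGGcaGGGGcGGGagtGG
The matches of FBXW2 and FBXW11 have 4 runs of at least 3 G, the stricter form of the pattern, which 14.3% of canonical 3′ UTRs hold. FBXW2 had a like share of reads in both lines and FBXW11 a far higher one in the mutant.

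By annotation, the groups differed from each other and between the lines. Of E2 reads in FH-DHX36-E335A, 53.3% lay in the 3′ UTR, 6.65% in coding sequence, 8.26% in the 5′ UTR and 30.4% in other annotation. In FH-DHX36 the values were 39.2%, 12.5%, 24.4% and 12.8%. UBE2S accounted for most of the 3284 E2 reads in 5′ UTRs there, with 2373. In the mutant UBE2E1 held 7528 of the 18167 E2 reads in other annotation. F-box reads in the mutant comprised 40.8% in the 3′ UTR, 21.5% in coding sequence and 20.7% in introns, and in FH-DHX36 50.2%, 28.0% and 11.7%. These shares rest largely on single genes. FBXL14 held 5769 of the 7310 intronic F-box reads in the mutant, and FBXO17 held 4205 of the 5335 F-box 3′ UTR reads in FH-DHX36. Over all genes the 3′ UTR held 53.3% of reads in the mutant and 38.4% in FH-DHX36, and the CDS 16.9% and 28.4%.

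**Figure D3:**
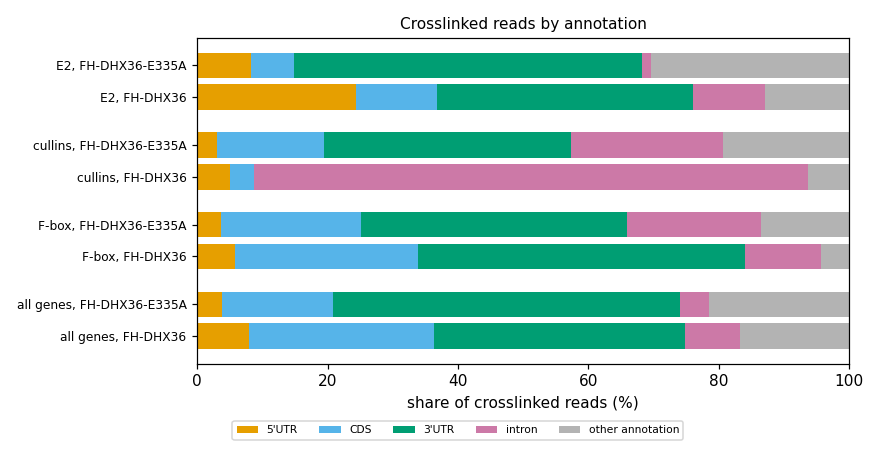
Share of crosslinked reads (%) in 5′ UTR, CDS, 3′ UTR, intron and other annotation, summed over the members of each group and over all genes, in each PAR-CLIP. The bar of the cullins in FH-DHX36 is 85.1% intronic and has no 3′ UTR part, and the E2 bar in FH-DHX36 has a 5′ UTR part of 24.4%, against 7.97% for all genes.

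Counted by gene, 20 of 31 E2 mRNAs in the mutant had over 50% of their reads in the 3′ UTR, as did 3 of 8 cullin and 17 of 39 F-box mRNAs, against 49.4% of all genes with a cluster. Over 50% in the CDS was found for 2 E2, 1 cullin and 4 F-box mRNAs, against 17.1% of genes. Introns held over 50% for 1 cullin and 4 F-box mRNAs (5.90%), the 5′ UTR for UBE2S alone (3.42%), and other annotation for 5 E2, 1 cullin and 3 F-box mRNAs (12.6%). In FH-DHX36, 9 of 21 E2 mRNAs and 7 of 30 F-box mRNAs were mainly 3′ UTR (background 35.9%). There 10 F-box mRNAs and 3 E2 mRNAs were mainly CDS (27.5%), and 3 E2 and 2 F-box mRNAs mainly 5′ UTR (8.85%). Introns held over 50% for 3 E2, 3 cullin and 7 F-box mRNAs, which is 23.6% of the members listed there (13.1%). Other annotation did for 2 E2, 1 cullin and 3 F-box mRNAs (10.4%). The annotation with most reads was the same in both lines for 26 of 53 members (49.1%), against 59.7% of all genes with a cluster in both. It was the 3′ UTR in both lines for 14 of 53 members and the CDS for 4. Of all 5669 genes with a cluster in both, 1865 and 779 were so. For 15 members it was the 3′ UTR in the mutant alone, and for 3 in FH-DHX36 alone, against 1199 and 277 of the 5669 genes.

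NXPM, the authors' score, divides crosslinked reads scaled to the PAR-CLIP total by mRNA abundance, and is not divided by the length of the region. Because both lines were divided by the same abundance, the ratio of their NXPM equals the ratio of read shares. The median NXPM of listed E2 mRNAs was 5.85 in the mutant and 7.31 in FH-DHX36, against 5.66 and 7.84 for all genes with a cluster. For cullins it was 6.22 and 7.05, and for F-box mRNAs 10.6 and 9.39. NXPM above 100 was reached in the mutant by FBXO45 with 132 and FBXW2 with 118, which is 2 of 78 members against a background of 5.18%. In FH-DHX36 it was reached by 5 of 55 members against 6.78%, namely FBXO45 with 132, FBXO17 with 126, FBXW2 with 115, UBE2O with 113 and UBE2K with 108. These shares rest on few mRNAs, below the background in the mutant and above it in FH-DHX36.

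**Figure D4:**
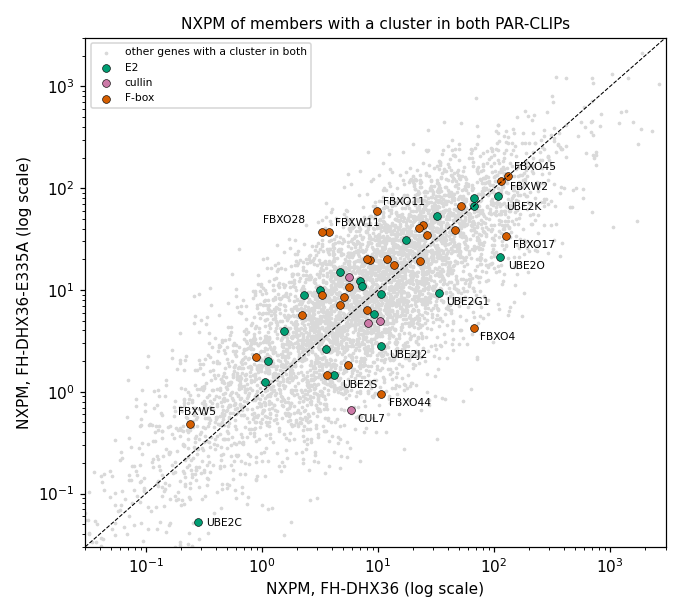
NXPM (reads over abundance, log scale) of the members with a cluster in both PAR-CLIPs, FH-DHX36 on the x axis and FH-DHX36-E335A on the y axis, with the line of equal values dashed. Gray points are 5616 other genes, of which 108 lie outside the axes. FBXO45 and FBXW2 sit on the line at the upper end, UBE2C lies lowest on the y axis, and FBXO4, FBXO44 and CUL7 lie far below the line.

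The order of the members by NXPM differed from that by reads. UBE2S, with an abundance of 274, had an NXPM of 1.45 in the mutant and 4.21 in FH-DHX36. UBE2C had 0.0531 and 0.281. UBE2E1, first by reads, had 15.1 and 4.67. The E2 mRNAs with the highest NXPM in the mutant were UBE2K with 83.2, UBE2R2 with 80.2, UBE2G2 with 66.8, UBE2H with 52.7 and UBE2Z with 30.8. Among F-box mRNAs, FBXL14 with 67.5, FBXO11 with 59.0 and FBXO30 with 43.9 followed FBXO45 and FBXW2. Regional NXPM, scaled to the reads of the same region, was highest for FBXL14 introns at 1272 in the mutant and for the FBXO45 5′ UTR at 453 in FH-DHX36. The FBXO45 5′ UTR reached 445 in the mutant.

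Across the members with a cluster in both lines, read shares lay on both sides of equality, with a median log2 ratio of 0.38. The share was higher in the mutant for 31 of 53 members, against 3030 of 5669 of all genes with a cluster in both. The median log2 ratio of FH-DHX36-E335A over FH-DHX36 was 0.23 for 21 E2, -0.93 for 4 cullin and 0.66 for 28 F-box mRNAs, against 0.12 for all 5669 genes. By group, 19 of 28 F-box, 11 of 21 E2 and 1 of 4 cullin mRNAs had a higher share in the mutant. The share was at least 2-fold higher in the mutant for 14 of 53 members (26.4%), against 28.6% of all genes. It was at least 2-fold higher in FH-DHX36 for 12 members (22.6%), against 24.8%. The first count comprised 4 E2, 1 cullin and 9 F-box mRNAs, and the second 5, 2 and 5. The ratios spanned -3.97 to 3.50 within the F-box mRNAs and -2.43 to 1.94 within the E2 mRNAs.

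The number of 3′ UTR clusters in the mutant went with 3′ UTR length more closely for E2 than for F-box mRNAs. Counted over all annotations, more than 20 clusters were found in the mutant for UBE2K with 36, UBE2V2 with 27, FBXW2 with 27, FBXO45 with 26, FBXO28 with 24 and UBE2D3 with 21. This is 6 of 78 members against a background of 4.40%. No member exceeded 20 clusters in FH-DHX36, where 0.438% of genes did. Across the 30 E2 mRNAs with a 3′ UTR cluster, Spearman's rho of 3′ UTR cluster number and canonical 3′ UTR length was 0.64. Pearson's r of log values was 0.63. Across 33 F-box mRNAs the values were 0.19 and 0.28, and across all 7125 such genes 0.41 and 0.43. The points are genes of a single PAR-CLIP and share its depth. UBE2W, an E2 that modifies protein amino termini, had the longest 3′ UTR of the E2 mRNAs at 7883 nt, with 8 clusters in it. FBXO22 and FBXO25, chosen for their length, had canonical 3′ UTRs of 9409 and 9163 nt, with 2 and 1 clusters listed as 3′ UTR. Clusters were categorized with GENCODE v19, whereas lengths came from GENCODE release 44, so that the regions may differ. The part of this in the values above, and in reads per kb, was not tested.

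**Figure D5:**
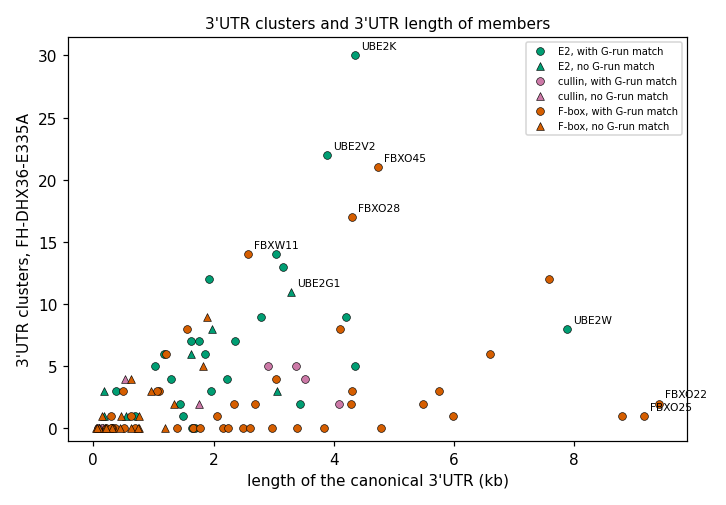
Number of 3′ UTR clusters in FH-DHX36-E335A against the length of the canonical 3′ UTR (kb), for the 104 members matched to the annotation. Circles mark 3′ UTRs with a G-run match and triangles those without, and points at 0 are members without a 3′ UTR cluster. UBE2K and UBE2V2 lie highest, the F-box mRNAs with the longest 3′ UTRs had 1 or 2 clusters, and UBE2G1 had 11 clusters without a match.

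Matches with runs of at least 2 G were less dense in cullin 3′ UTRs than in those of all listed genes. For E2 and F-box 3′ UTRs the intervals held the value of all listed genes. Matches with runs of at least 3 G were few. A match was held by 74 of 104 members (71.2%) against 65.0% of all canonical 3′ UTRs, and by 52 of the 69 members with a 3′ UTR cluster (75.4%) against 76.6% of all such genes. Per kb of 3′ UTR there were 1.48 matches in listed E2 (interval 1.21 to 1.79), 0.549 in cullin (0.251 to 1.04) and 1.62 in F-box mRNAs (1.40 to 1.87). The value was 1.73 for all genes listed in the mutant and 1.84 for all canonical 3′ UTRs. The cullin value rests on 9 matches, and 6 of 8 cullin 3′ UTRs (75%) held a match, against 71.3% for all listed genes. Runs of at least 3 G gave 10 matches in listed E2 (0.141 per kb), 1 in cullin (0.0610) and 14 in F-box mRNAs (0.121). The rate was 0.0988 for all listed genes and 0.113 for all canonical 3′ UTRs, and the differences rest on few matches. A 3′ UTR cluster but no match was found for 17 members, among them UBE2G1, UBE2D1, UBE2J1, UBE2Q2, CUL1 and CUL2. The absence says only that these letters are not in the canonical 3′ UTR. Reads per kb and matches per kb were nearly unrelated, with a rho of 0.07 over 69 members and 0.08 over 7125 genes.

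The partners of these proteins in the pathway were listed mostly in the mutant as well, where the background was 48.1% of protein-coding genes, against 31.2% in FH-DHX36. Of 8 E1 subunits 6 had a cluster in FH-DHX36-E335A and 3 in FH-DHX36, and UBA1, the main E1 of ubiquitin, had none. SAE1, a subunit of the SUMO E1, had the most reads of them, with 3873 and 1928. All 7 listed partners of cullins had a cluster in the mutant and 6 in FH-DHX36, and 4 had an at least 2-fold higher share in the mutant, against 28.6% of all genes with a cluster in both. SKP1, which joins F-box proteins to CUL1, had 639 and 39 reads (log2 ratio 2.02). RBX1, the RING subunit that binds the E2, had 1185 and 59 reads (2.31), and DDB1, the partner of CUL4A, had 358 and 22 (2.01). The median log2 ratio over 6 partners was 1.59, against 0.12 for all genes, with 59 or fewer reads in FH-DHX36 for each of these 3.

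Genes that control cullin neddylation were likewise listed, against the same background of 48.1% and 31.2% of protein-coding genes. All 7 of the CAND and DCUN1D genes had a cluster in the mutant and 6 in FH-DHX36. CAND1, which exchanges F-box proteins on CUL1, had 2424 reads in 31 clusters and 244 in 3 clusters (log2 ratio 1.29). All 9 subunits of the COP9 signalosome, which removes NEDD8, were listed in the mutant and 7 in FH-DHX36. COPS6 had 1283 and 17 reads (4.22), whereas GPS1 had 257 and 918 (-3.86), so that subunits of the same complex lay at both ends. Of the F-box genes with other names, 5 of 6 were listed in the mutant and 4 in FH-DHX36, and SKP2, a receptor of CDKN1B, had 1537 and 125 reads (1.60). Of 5 E2 genes with other names 4 and 3 were listed, and CDC34, the classic partner of SCF ligases, had 647 and 176 reads (-0.14).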

How the data were processed

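PAR-CLIP values of 2 HEK293 cell lines, with 2 biological replicates each, were analysed from 1 table of 26490 genes. Per the labels, demultiplexing used bcl2fastq 2.17.1 and reads were mapped to hg19. According to the methods of the study, clusters were called with PARalyzer in PARpipe at default settings and categorized with GENCODE v19. The sources used here do not give versions of these. The authors deposited raw counts of clusters and of crosslinked reads by gene and annotation, with 1 value per cell line. NXPM is a normalized score that the authors deposited. Its values follow crosslinked reads scaled to the PAR-CLIP total (regional values to the reads of the region) over mRNA abundance plus 0.001, and abundance was recovered from this. Whether the table holds all clusters or those shared by replicates was not tested. Reads outside 5′ UTR, CDS, 3′ UTR and intron are called other annotation.

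Members were found by symbol, but the families and gene lists were chosen with earlier results of these data known. Shares carry 95% Wilson intervals, and log2 ratios exact binomial intervals (scipy 1.17.1). Matches per kb carry Poisson intervals, which treat matches as independent. Ratios were called at 2-fold. The interval code was tested on simulated data. With 1 value per line, no p-value was computed, and planned fits with replicates were not run. Lengths and G runs came from canonical transcripts of GENCODE release 44 on GRCh37, the build of hg19, which matched 104 of 105 members. Named were all cullins, and in the E2 and F-box groups the 6 members with most FH-DHX36-E335A reads, the 5 with the highest NXPM at an abundance of at least 1, the 4 highest and 4 lowest ratios at 100 or more reads, members listed in FH-DHX36 alone, paralog sets, and UBE2S as a published target. Other choices are marked. Single values of 2 members are not reported here, in text or in the plots of reads, and these members stay in all counts. Alternatives were a minimum of 2 clusters, 50 or 100 reads, exonic reads or clusters only, scaling by the median ratio, medians of members, an abundance of at least 1, longest 3′ UTRs, runs of at least 3 G, and leaving out single members.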

Additional observations from a re-analysis of the deposited data

How the results depend on the processing

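No paired analysis was possible because the table holds 1 value per cell line, and for the same reason no replicate could be left out in turn. Of the alternatives for the group results, 66 stayed within the set limits and 28 were counted as moved. The 28 include those with runs of at least 3 G, which were not compared with a limit. Leaving out FBXO17, and UBE2S in FH-DHX36, was counted both by name and as the member with most exonic reads. With an exonic cluster required, 2 cullins were listed in FH-DHX36, and with at least 2 clusters, 16 F-box mRNAs. Over exonic reads alone, the cullin median log2 ratio turned to 1.64 over 2 genes, of which 2 were at least 2-fold higher in the mutant and 0 in FH-DHX36, and the F-box count higher in the mutant fell to 5. With at least 100 reads, 1 cullin remained higher in FH-DHX36. Single ratios turned for CUL3 (1.60) and FBXO46 (-0.16) over exonic reads. Scaling by the median ratio lowered every log2 ratio by 0.12, and no count of members past 2-fold moved by over 1.5 times. The 3′ UTR share of exonic reads depended on how members were weighted and on single members. Over all genes it was 71.9% in the mutant and 51.4% in FH-DHX36. Among genes with an exonic cluster in the mutant, the 3′ UTR made up 52.7% of canonical exonic length. For such E2, cullin and F-box mRNAs this length share was 72.0%, 50.6% and 60.9%. For E2 mRNAs in the mutant the share of exonic reads was 78.1%, and 78.6% by clusters and 90.3% as the median of members. It was 72.5% without UBE2G2 and 85.4% without UBE2S. For E2 mRNAs in FH-DHX36 it was 51.6%, and 65.2% by clusters, 82.9% as the median and 67.9% without UBE2S. For cullins in the mutant it was 66.0%, and 52.4% by clusters and 63.2% without CUL4B. For F-box mRNAs in the mutant it was 61.9%, and 59.8% by clusters, 64.0% as the median and 55.7% without FBXO17. For F-box mRNAs in FH-DHX36 it was 59.7%, and 44.6% by clusters, 0% as the median and 24.3% without FBXO17. Leaving out UBE2S and FBXO17 by name was chosen after seeing the data. With runs of at least 3 G, 0.141 matches per kb were found in E2, 0.0610 in cullin and 0.121 in F-box 3′ UTRs. All listed genes had 0.0988. The E2 and F-box rates lay above this background but rest on 10 and 14 matches. With runs of at least 2 G they lay below the 1.73 of all listed genes, which their intervals held. FH-DHX36 held 2160413 crosslinked reads, and the part of this depth in what was listed there was not tested. The cause of the changes above was not tested.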
